A study of Homo sapiens with 28 samples.

Results

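The zinc finger genes of human chromosome 19 were described across 14 groups of MDA-MB-231 cells, an established line of mesenchymal-like, triple-negative breast cancer. Members were the protein-coding genes of chromosome 19 in the deposited count table whose symbol begins with ZNF and a number. The rule used names and positions alone and found 249 genes of 58735 in the table. Of these 249 genes, 212 (85.1%) passed the filter on low counts and are called expressed here, against 17191 of all genes. The other 37 were not tested, and 8 of them had no read in any library: ZNF625-ZNF20, ZNF729, ZNF99, ZNF285, ZNF816-ZNF321P, ZNF667, ZNF835 and ZNF135. The 29 with some reads had few, since the median total over the 28 libraries was 3 counts across the 37 genes and the highest was 91 counts, for ZNF709.

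The cells carried either a Tpm2.1 construct or an empty vector (EV), and all were kept in puromycin. Tpm2.1 is a tropomyosin, an actin-binding protein encoded by TPM2. The groups of Tpm2.1 cells were apoptotic and non-apoptotic fractions of suspended cells, taken after 5 hours and after 1, 2 and 4 days and divided with Annexin V beads, and cells attached to culture plates for 6 hours. The groups of EV cells were cells suspended on ultra-low attachment plates for the same 4 times, for which no separation is described, and attached cells. Each group had 2 libraries of polyadenylated RNA, titled as biological replicates. There was 1 line of each kind and the labels do not say whether it was a clone, so Tpm2.1 and any other difference between the lines cannot be told apart. TPM2 averaged 3302 CPM (counts scaled to a common library total with TMM) in attached Tpm2.1 cells and 24.9 CPM in attached EV cells, as the labels state. VIM, CD44 and EGFR, markers of this line, were present in every group, while SPARC, also listed as a marker, was under 1 CPM. ERBB2, listed as low or absent, averaged 14.5 CPM in apoptotic 4 day cells and up to 103 CPM in the other groups. Of the fibroblast markers listed as a check, COL1A1 averaged 19.4 to 100 CPM and DCN up to 5.59 CPM, in non-apoptotic 4 day cells. ESR1, PGR, CDH1, PTPRC and CD3E averaged at most 1.68 CPM in any group.

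Libraries held 13043529 to 27416335 counts. The attached libraries carry other library numbers than the suspended ones, so attachment and any difference in when those libraries were made cannot be told apart. The apoptotic 4 day libraries stood apart. They had reads on 18183 and 18676 genes, against 21275 to 24530 genes in the other 26 libraries, and 6.13% of their counts on average lay on the 13 mitochondrial mRNAs, against 1.40% in the non-apoptotic cells of that day. At 5 hours, 1 day and 2 days that share was 4.60%, 4.23% and 3.40% in apoptotic and 1.53%, 1.48% and 1.26% in non-apoptotic cells. In suspended EV cells it was 3.14%, 4.23%, 3.97% and 1.20% over the 4 times, with 2.16% in attached Tpm2.1 and 1.61% in attached EV cells. The part of these shares in the results below was not tested. The comparison of fractions averaged over times, the ranges over groups and the likeness to other genes are given with and without the apoptotic 4 day libraries. In bulk RNA, fewer cells of a type and less RNA per cell cannot be told apart. All fold changes below are log2, with the approximate standard error (SE) after ±, from edgeR's quasi-likelihood test, and a gene passed where its Benjamini-Hochberg adjusted p over 17191 genes was under 0.05.

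Most genes of this set encode proteins with tandem C2H2 zinc fingers, each of which holds a zinc ion through a pair of cysteines and a pair of histidines and reads a few bases of DNA. Many also carry a KRAB domain at the amino end, which recruits TRIM28 (KAP1) and, through it, the histone H3 lysine 9 methyltransferase SETDB1. KRAB zinc finger proteins are known above all as repressors of retrotransposons, and their genes lie in clusters on chromosome 19 that grew by tandem duplication. By the coding sequences of the annotation, the 249 genes encode up to 36 fingers each, with a median of 12. A KRAB-like stretch was found in 180 genes by the stricter pattern and in 197 by a wider one, which took in 170 of the 212 expressed genes and left 42 without. Single fingers show how much the base composition varies for 1 protein fold. Below are the coding bases of a finger from 3 KRAB genes, ZNF91, ZNF480 and ZNF160, and from 3 genes without KRAB, ZNF787, ZNF358 and ZNF524, which were higher and lower in apoptotic 4 day cells. Each is 84 bases of the coding strand, 5′ to 3′, from the GENCODE annotation on hg38, and the capitals mark the codons of the zinc-binding cysteines and histidines.
ZNF91: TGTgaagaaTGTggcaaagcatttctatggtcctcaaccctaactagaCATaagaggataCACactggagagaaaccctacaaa
ZNF480: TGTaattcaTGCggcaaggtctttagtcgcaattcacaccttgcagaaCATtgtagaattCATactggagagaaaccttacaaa
ZNF160: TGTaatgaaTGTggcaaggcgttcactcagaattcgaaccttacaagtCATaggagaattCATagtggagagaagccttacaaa
ZNF787: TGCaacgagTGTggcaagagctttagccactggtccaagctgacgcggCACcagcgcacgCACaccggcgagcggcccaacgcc
ZNF358: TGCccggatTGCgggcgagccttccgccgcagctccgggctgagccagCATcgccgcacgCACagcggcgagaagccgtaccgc
ZNF524: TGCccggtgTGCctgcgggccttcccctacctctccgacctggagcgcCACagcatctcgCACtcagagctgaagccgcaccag
The fingers of ZNF91, ZNF480 and ZNF160 had 41.7%, 39.3% and 40.5% G or C, and those of ZNF787, ZNF358 and ZNF524 had 66.7%, 73.8% and 67.9%. Over the 243 members with such a finger the range was 27.4% to 76.2% and the median 40.5%. The genes with printed fingers were chosen for their direction at 4 days and do not stand for all genes of their kind. ZNF146, which has no KRAB domain, had 40.5% in a finger and 41.4% in its longest transcript. The medians of whole transcripts differed in the same direction as the printed fingers. The median G+C content of the longest transcript was 41.7% for the 170 expressed genes with a KRAB stretch and 50.1% for the 42 without. It was 42.4% for all 212, 48.1% for all genes tested and 60.2% for the other protein-coding genes of chromosome 19, so the set is poor in G and C within a chromosome that is rich in them.

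The genes were expressed at low levels. The median of the mean length-normalised level was 1.77 FPKM over the 212 expressed members, against 5.97 FPKM over the 13343 protein-coding genes tested, and 179 of the 249 reached 1 FPKM in the mean of a group while 16 reached 10 FPKM. ZNF146, which is made almost wholly of fingers and has no KRAB domain, was the highest at 22.7 FPKM over the 14 group means. ZNF114 followed at 19.1 FPKM, then ZNF787 at 11.7, ZNF317 at 10.9, ZNF358 at 10.8 and ZNF428 at 9.81 FPKM. These 6 genes were steady to very different degrees. ZNF317 stayed between 9.34 and 13.5 FPKM across group means, whereas ZNF787 ran from 0.738 FPKM in apoptotic 4 day cells to 21.8 FPKM in attached Tpm2.1 cells. The genes with the smallest log2 range over the 14 groups were ZNF440 (0.40), ZNF544 (0.41), ZNF274 (0.48) and ZNF317 (0.51), and the largest ranges were those of ZNF428 (5.01), ZNF524 (4.83) and ZNF787 (4.61). Without the apoptotic 4 day group these 3 ranges were 0.87, 1.62 and 1.24, and the largest were those of ZNF331 (3.30), ZNF681 (2.51) and ZNF90 (2.51). Of the 212 genes, 120 had their highest level in apoptotic 4 day cells and 34 their lowest there, while 64 were lowest in attached EV cells. Without that group the highest levels were spread over the other 13 groups, with at most 27 genes highest in any of them, and 65 genes were lowest in attached EV cells. Reads may be shared, since 151 of the 212 overlap another annotated gene, close paralogs are similar in sequence, and no strand setting of the counting is stated.

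Together the 249 genes took up a small share of all counts, which was lowest in attached EV cells. Attached Tpm2.1 libraries (0.2204% and 0.2183%) were not set apart from non-apoptotic 4 day ones (0.2201% and 0.2193%). The mean share was 0.219% in attached Tpm2.1 cells and 0.210% in attached EV cells. In suspended EV cells it was 0.250%, 0.266%, 0.269% and 0.242% at 5 hours, 1, 2 and 4 days. Non-apoptotic Tpm2.1 cells had 0.255%, 0.268%, 0.258% and 0.220% at those times, and apoptotic cells 0.258%, 0.281%, 0.283% and 0.314%. The apoptotic and non-apoptotic shares thus lay closest at 5 hours and farthest apart at 4 days, when the apoptotic libraries had 0.311% and 0.317%.

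**Figure D1:**
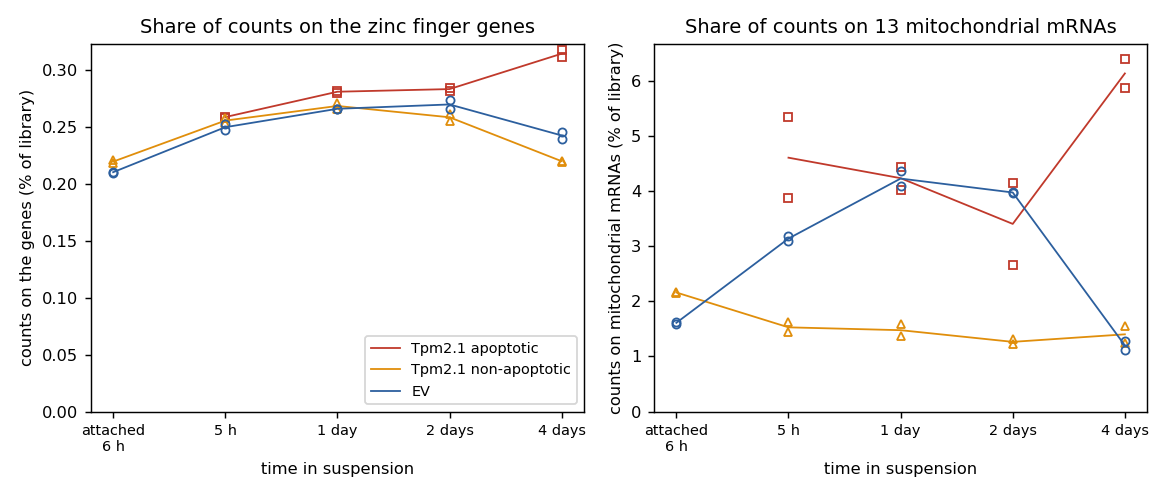
Percent of each library's counts on the 249 zinc finger genes of chromosome 19 and on the 13 mitochondrial mRNAs, 1 point per library, with lines through group means and attached Tpm2.1 cells drawn with the non-apoptotic ones. The zinc finger share is highest in the 2 apoptotic 4 day libraries (0.311% and 0.317%), where the mitochondrial share is also highest (6.13% on average).

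The first question was whether the lines differed while attached. Few members did, with 11 higher and 1 lower in attached Tpm2.1 cells than in attached EV cells, while 10.4% of all genes tested were higher and 10.1% lower. With the libraries of this comparison alone the counts were 23 and 4, and without 1 library at a time 4 to 9 were higher and 0 to 1 lower. The median log2 fold change of the 212 genes was 0.07. ZNF681 had 3.77 and 2.91 CPM in attached Tpm2.1 cells, against 0.319 and 0.394 CPM in attached EV cells, a log2 fold change of 3.20 ± 0.36 (adjusted p = 7.52e-09). ZNF283 had 1.15 and 0.777 CPM in attached Tpm2.1 cells, against 0.319 and 0.131 CPM in attached EV cells (2.07 ± 0.55, adjusted p = 0.0059). In neither gene did the libraries of the lines overlap, and neither overlaps another annotated gene. ZNF283 is given here because it is named in the comparison of suspended cells below, while its attached group means lie under the 1 CPM needed for naming. ZNF257 was chosen for mention after its values were seen, since it lies under the 1 CPM needed for naming. It had 19 and 15 counts in attached Tpm2.1 cells and none in attached EV cells, which makes it at least 5.08-fold higher with a floor of 3 counts per library.

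The remaining higher genes differed less. ZNF844 had 11.3 and 12.6 CPM in attached Tpm2.1 cells, against 7.02 and 8.31 CPM in attached EV cells (0.64 ± 0.13, adjusted p = 0.000436). ZNF43 differed by 0.68 ± 0.24 (adjusted p = 0.0359), ZNF528 by 0.53 ± 0.14 (adjusted p = 0.00524) and ZNF675 by 0.43 ± 0.15 (adjusted p = 0.032). ZNF675 is known as a TRAF6-binding inhibitor of NF-kappaB signalling. These last 3 calls were lost in edgeR without 1 of the 4 attached libraries, and those of ZNF43 and ZNF675 also in DESeq2. The single lower gene was ZNF146, with 115 and 112 CPM in attached Tpm2.1 cells, against 127 and 130 CPM in attached EV cells (−0.17 ± 0.062, adjusted p = 0.0452), and its call was lost without any 1 of the 4 attached libraries. With a correction for G+C content the counts were 8 higher and 4 lower, and without the apoptotic 4 day libraries in the fit 11 and 5, so the split between directions depends on the fit.

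Suspension of EV cells was accompanied by many more changes. Over the mean of the 4 times, 110 of 212 genes were higher and 31 lower in suspended than in attached EV cells, while 34.2% of all genes tested were higher and 32.2% lower. The median log2 fold change was 0.32, against 0.06 over all genes. Past a 2-fold change, 21 genes were higher and 3 lower, against 14% and 5.92% of all genes. As parts of the 212 genes both counts were smaller than those shares. With the correction for G+C content the counts were 85 higher and 41 lower. The number of higher genes was 57 at 5 hours (26% of all genes), 107 at 1 day (32.7%), 102 at 2 days (33.3%) and 102 at 4 days (31.6%). At 5 hours the 57 of 212 lay near the share of all genes. Lower genes numbered 21 (28.7%), 25 (30.3%), 30 (31.3%) and 34 (28%) at those times.

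**Figure D2:**
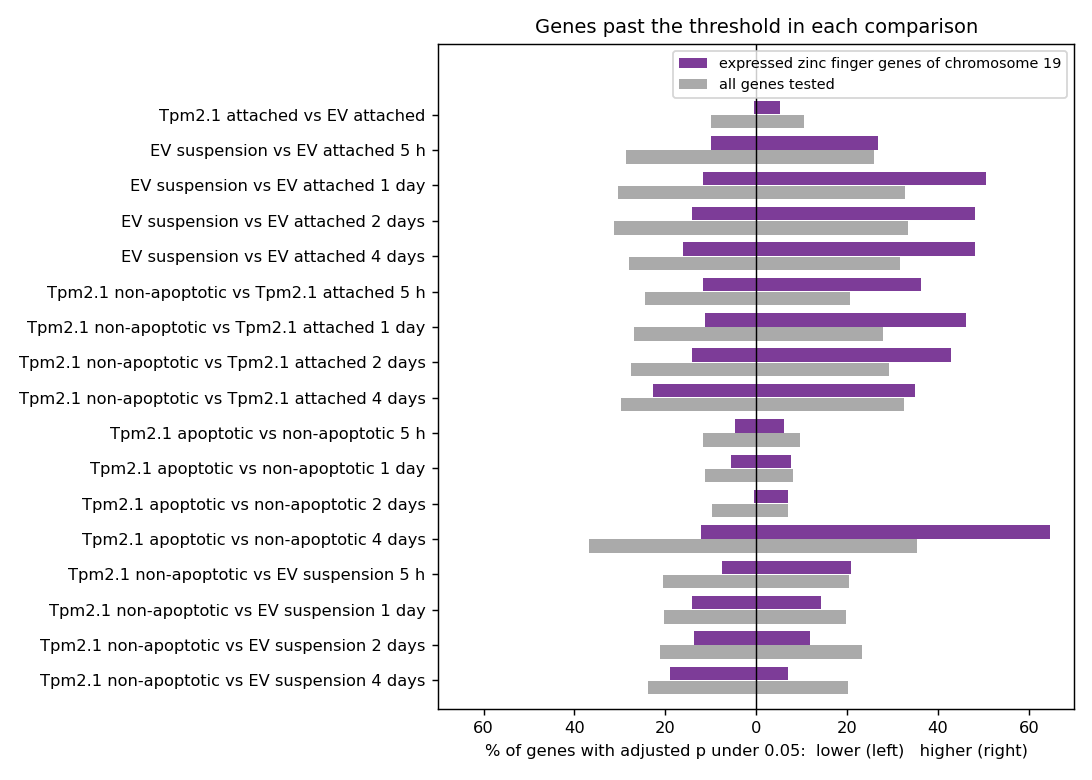
Percent of the 212 expressed zinc finger genes and of all 17191 genes tested that were higher or lower, adjusted p under 0.05 by edgeR, in attached cells and in each comparison at a single time. Over the mean of times, which is not drawn, 110 of the 212 genes were higher and 31 lower in suspended EV cells. All genes were split nearly evenly there (34.2% and 32.2%).

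The balance differed between kinds of member. Of the 170 genes with a KRAB stretch, 97 were higher and 19 lower in suspended than in attached EV cells, with a median of 0.37. Of the 42 without, 13 were higher and 12 lower, with a median of 0.06. The other protein-coding genes of chromosome 19 stood at 218 higher and 328 lower of 747 tested (median −0.09), and ZNF genes of other chromosomes at 86 and 55 of 228 (median 0.07). By position, 10 clusters with gaps of over 500 kb between them held 235 of the 249 genes. The cluster from ZNF575 to ZNF180 (chr19:43525497-44500524, hg38) had 15 of 20 expressed genes higher and 1 lower, with a median of 0.77. The cluster from ZNF175 to ZNF331 (chr19:51571298-53580269) had 23 of 35 higher and 2 lower (median 0.42), whereas the 12 expressed genes from ZNF628 to ZNF835 (chr19:55476332-56671783), a cluster with a KRAB stretch in 4 of 16 genes, had 2 higher and 4 lower (median −0.12). These counts are descriptions, and the differences between subsets were not tested.

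Among the higher genes, ZNF493 had a median of 4.10 CPM in the 8 suspended EV libraries (2.36 to 6.35), against 1.46 and 1.40 CPM in attached EV cells (1.62 ± 0.22, adjusted p = 3.05e-08). ZNF320 had a median of 5.94 CPM in suspended EV libraries (3.44 to 8.30), against 2.14 and 1.92 CPM in attached EV cells (1.48 ± 0.21, adjusted p = 1.14e-07). In both genes every suspended library lay above both attached ones. ZNF404, in the ZNF575 to ZNF180 cluster, had a median of 3.48 CPM in suspended EV libraries (2.57 to 4.11), against 1.14 and 1.14 CPM in attached EV cells (1.53 ± 0.26, adjusted p = 1.98e-06). ZNF575 itself had a median of 2.45 CPM in suspended EV libraries (2.24 to 2.88), against 0.912 and 0.875 CPM in attached EV cells (1.48 ± 0.31, adjusted p = 6.63e-05). ZNF223, another gene of that cluster, differed by 1.48 ± 0.44 (adjusted p = 0.00311), a call lost without the first attached EV library.

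Lower genes were fewer, and 19 of the 31 held a KRAB stretch. ZNF699 had a median of 8.07 CPM in the 8 suspended EV libraries (6.93 to 10.9), against 19.7 and 21.4 CPM in attached EV cells (−1.27 ± 0.12, adjusted p = 2e-12). ZNF296, whose mouse counterpart is linked to pluripotent cells, had a median of 2.99 CPM in suspended EV libraries (2.20 to 5.48), against 9.89 and 9.01 CPM in attached EV cells (−1.57 ± 0.17, adjusted p = 1.3e-10). ZNF473, also called ZFP100, is part of the U7 machinery that processes the mRNAs of replication-dependent histones. It had a median of 11.6 CPM in suspended EV libraries (8.73 to 15.8), against 23.0 and 23.4 CPM in attached EV cells (−1.0 ± 0.091, adjusted p = 1.92e-12). ZNF787 had a median of 35.8 CPM in suspended EV libraries (31.2 to 47.7), against 71.4 and 69.4 CPM in attached EV cells (−0.90 ± 0.069, adjusted p = 2.23e-14). In these 4 genes suspended and attached libraries did not overlap. ZNF724 also fell, by 0.81 on the log2 scale (SE 0.18, adjusted p = 0.00011), and lost the call without the first attached EV library.

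In Tpm2.1 cells the non-apoptotic fraction was set against attached cells of the same line. Over the mean of times, 100 of the 212 genes were higher and 35 lower, while 30.8% of all genes tested were higher and 30.6% lower. The median was 0.26, against 0.03 over all genes, and past 2-fold 13 genes were higher and 3 lower, against 8.62% and 6.09% of all genes. As parts of the 212 genes both 2-fold counts were smaller than those shares. With the G+C correction the median was 0.17, with 80 genes higher and 41 lower. Genes with a KRAB stretch stood at 91 higher and 19 lower, and those without at 9 and 16. Of the genes called higher in this comparison and in suspended EV cells, which share no library, 88 were in common. That is 88% of the non-apoptotic list and 80% of the EV list, against 71.6% and 64.6% for all genes. Such shares rise with the number of calls. In EV cells 110 of the 212 members were called higher, against 34.2% of all genes. Whether members agreed more than all genes was not tested. For lower genes 26 were in common, 74.3% of the non-apoptotic list and 83.9% of the EV list, against 79.2% and 75.3% for all genes.

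By time, the non-apoptotic counts of higher genes were 77 at 5 hours (20.7% of all genes), 98 at 1 day (27.8%), 91 at 2 days (29.2%) and 74 at 4 days (32.6%). Lower genes numbered 25 (24.5%), 24 (27%), 30 (27.6%) and 48 (29.8%). Part of the later rise in lower genes lay in the cluster from ZNF101 to ZNF254 (chr19:19668796-24129961), which holds 37 genes, 34 of them with a KRAB stretch, and 27 expressed ones. Its counts of higher and lower genes in non-apoptotic against attached Tpm2.1 cells were 12 and 0 at 5 hours (also 0 lower at an unadjusted p under 0.05 by edgeR), 4 and 6 at 1 day, 7 and 7 at 2 days, and 1 and 16 at 4 days. The median went with them, at 0.39, −0.02, −0.05 and −0.56. At 4 days 11 of its genes were lower by more than 2-fold, against 10.7% of all genes, namely ZNF93, ZNF90, ZNF66, ZNF85, ZNF714, ZNF100, ZNF43, ZNF724, ZNF675, ZNF681 and ZNF726. In EV cells the same cluster stood at 6 higher and 7 lower at 4 days, with a median of 0.08. The cluster was picked out after its values were seen. Its genes had a median G+C content of 37.6%, against 42.4% for the 212 expressed genes. In non-apoptotic against attached Tpm2.1 cells at 5 hours, Pearson's r between G+C content and log2 fold change was −0.57 over those 212 genes. The part of base composition in the counts of the cluster was not tested.

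**Figure D3:**
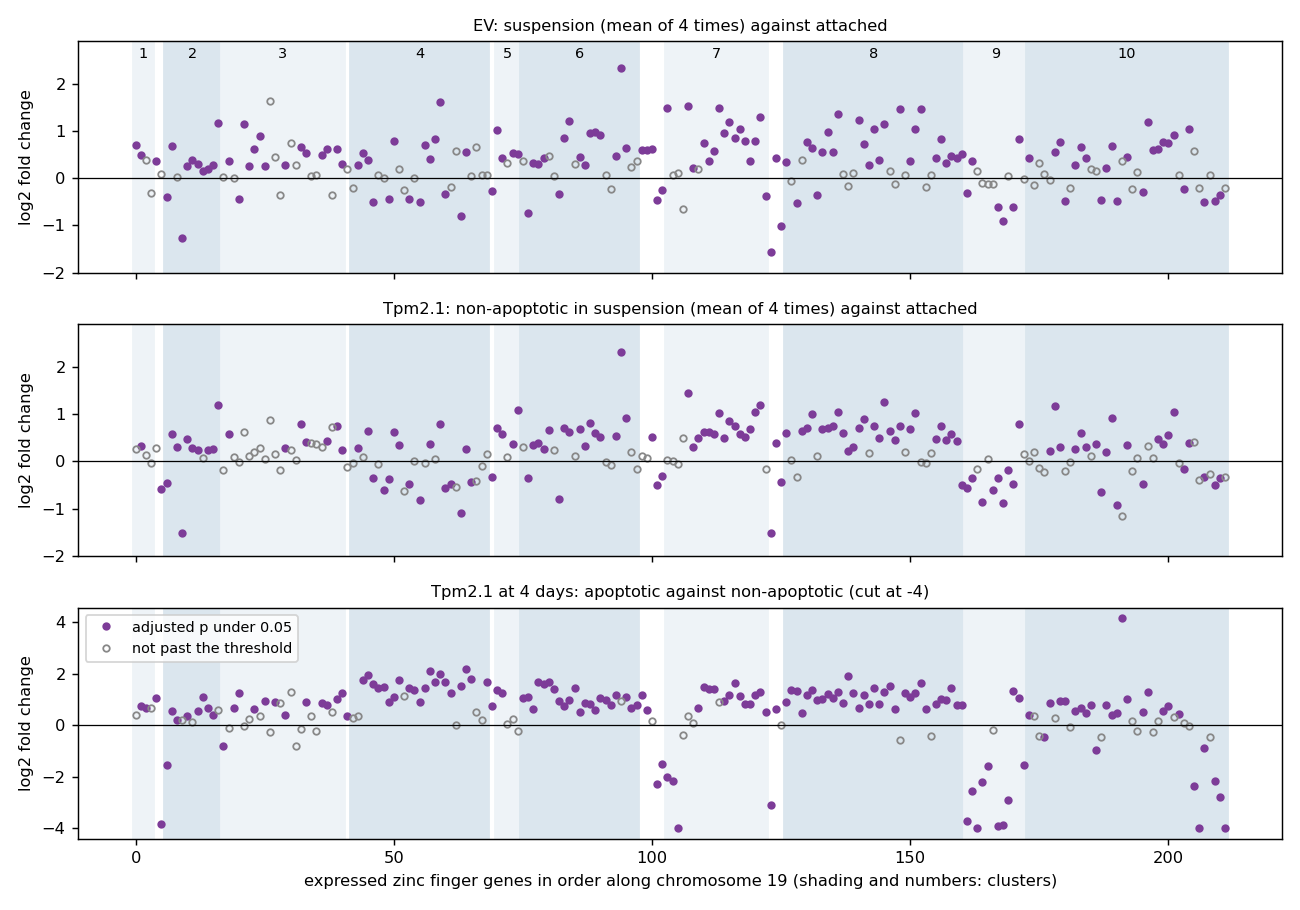
Log2 fold change of the 212 expressed genes in their order along chromosome 19, for suspended against attached EV cells and non-apoptotic against attached Tpm2.1 cells (means of times) and for apoptotic against non-apoptotic cells at 4 days, with values under −4 drawn at −4. Shaded and numbered blocks are the position clusters. In the 4 day fractions cluster 4, from ZNF101 to ZNF254, lies above 0 with a median of 1.46, and cluster 9, from ZNF628 to ZNF835, mostly below it with a median of −2.37.

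The genes that stood out were partly those of EV cells. ZNF600 had a median of 19.5 CPM in the 8 non-apoptotic libraries (16 to 23.9), against 8.53 and 7.69 CPM in attached Tpm2.1 cells (1.25 ± 0.10, adjusted p = 1.61e-13). ZNF404 had a median of 2.06 CPM in non-apoptotic libraries (0.888 to 3.08), against 0.82 and 0.505 CPM in attached Tpm2.1 cells (1.45 ± 0.29, adjusted p = 3.79e-05). ZNF112 differed by 1.19 ± 0.19 (adjusted p = 8.19e-07) and ZNF547 by 1.17 ± 0.24 (adjusted p = 7.09e-05). ZNF600 and ZNF404 showed no overlap between non-apoptotic and attached libraries. ZNF846 differed by 1.19 ± 0.28 (adjusted p = 0.000315), a call lost without the second attached Tpm2.1 library.

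On the lower side ZNF699 had a median of 7.72 CPM in the non-apoptotic libraries (4.32 to 9.13), against 19.6 and 20.9 CPM in attached Tpm2.1 cells (−1.51 ± 0.11, adjusted p = 1.34e-14). ZNF296 had a median of 3.85 CPM in non-apoptotic libraries (2.44 to 5.78), against 12.5 and 9.75 CPM in attached Tpm2.1 cells (−1.51 ± 0.16, adjusted p = 8.18e-11). ZNF787 fell by 0.88 (SE 0.067, adjusted p = 1.66e-14), ZNF551 by 0.93 (SE 0.099, adjusted p = 1.59e-10) and ZNF724 by 1.10 (SE 0.18, adjusted p = 1.04e-06). ZNF699, ZNF296, ZNF787 and ZNF724 were thus lower in suspension in both lines.

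The suspension response of non-apoptotic Tpm2.1 cells was tested against that of EV cells as a difference of differences. No separation is described for the EV cells, so line and bead separation cannot be told apart in this difference. It passed for 9 genes in the positive direction, where Tpm2.1 cells changed more upward, and for 25 in the negative, while 17% and 16.6% of all genes passed. The median difference was −0.06, against −0.02 over all genes. ZNF331, an imprinted KRAB gene often methylated in tumours, had the lowest adjusted p of those named (−1.02 ± 0.15, adjusted p = 1.83e-06). In non-apoptotic Tpm2.1 cells it had 22.9 and 22.2 CPM at 5 hours, 10.4 and 13.1 at 1 day, 8.50 and 9.60 at 2 days, and 2.67 and 3.95 at 4 days, against 14.1 and 12.7 CPM in attached Tpm2.1 cells. In EV cells it had 24.3 and 25.7 CPM at 5 hours, 23.4 and 21.1 at 1 day, 15.1 and 16.8 at 2 days, and 8.77 and 10.6 at 4 days, against 12.1 and 11.8 CPM in attached EV cells. At 5 hours the lines differed by −0.15 ± 0.12 (adjusted p = 0.341), and at each later time the non-apoptotic libraries lay below the EV ones.

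ZNF792 differed the other way (0.58 ± 0.16, adjusted p = 0.00407), a call lost without the second attached EV library. At 4 days it had 28.5 and 29 CPM in non-apoptotic Tpm2.1 cells and 11.9 and 14.9 CPM in suspended EV cells, while attached Tpm2.1 cells had 9.72 and 8.63 CPM and attached EV cells 8.07 and 8.96 CPM. ZNF473 and ZNF468 each had a difference of 0.57 (SE 0.13, adjusted p = 0.000613, and SE 0.12, adjusted p = 0.000255). ZNF575 had a difference of −1.45 ± 0.43 (adjusted p = 0.00851), with medians of 1.29 CPM in the non-apoptotic and 2.45 CPM in the suspended EV libraries. ZNF493 had −0.82 ± 0.31 (adjusted p = 0.0369), which did not pass in DESeq2.

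The direct comparison of non-apoptotic Tpm2.1 cells with suspended EV cells sets a bead-separated fraction against unseparated cells, and it shares its libraries with comparisons above. Over the mean of times 48 genes were higher and 50 lower, while 28.6% of all genes tested were higher and 32% lower. By time, higher genes numbered 44 (20.4% of all genes), 30 (19.7%), 25 (23.3%) and 15 (20.2%), and lower genes 16 (20.4%), 30 (20.3%), 29 (21.1%) and 40 (23.8%). Higher genes outnumbered lower ones at 5 hours, and lower ones outnumbered higher ones at 4 days. As a part of the expressed members, the 44 higher genes at 5 hours lay near the share of all genes (20.4%). The 40 lower genes at 4 days were a smaller part than among all genes (23.8%). The opposite calls, 16 lower at 5 hours and 15 higher at 4 days, lay further below the shares of all genes (20.4% and 20.2%). In the ZNF101 to ZNF254 cluster 10 genes were higher and none lower at 5 hours, and at 4 days 1 was higher and 13 lower. None was lower at an unadjusted p under 0.05 at 5 hours by edgeR.

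ZNF283 had 1.58 and 1.97 CPM at 5 hours and 0.959 and 1.29 CPM at 4 days in non-apoptotic cells, against 0.372 and 0.264 CPM at 5 hours and 0 and 0.0669 CPM at 4 days in suspended EV cells (mean of times 3.21 ± 0.34, adjusted p = 1.46e-10). ZNF681 had 4.85 and 3.94 CPM at 5 hours and 1.23 and 1.37 CPM at 4 days in non-apoptotic cells, against 0.745 and 0.396 CPM and 0.540 and 0.736 CPM in suspended EV cells (2.12 ± 0.19, adjusted p = 3.2e-12). Both genes were also higher in attached Tpm2.1 cells than in attached EV cells. ZNF844 differed by 0.65 ± 0.069 (adjusted p = 1.92e-10), ZNF792 by 0.69 ± 0.068 (adjusted p = 3.51e-11) and ZNF614 by 0.64 ± 0.079 (adjusted p = 5.38e-09). On the lower side ZNF865 had 25.4 and 22.1 CPM at 4 days in non-apoptotic cells, against 39.2 and 36.7 CPM in suspended EV cells (mean of times −0.73 ± 0.051, adjusted p = 1.76e-15). ZNF358 fell by 0.98 (SE 0.077, adjusted p = 6.46e-14), ZNF331 by 0.86 (SE 0.077, adjusted p = 1.9e-12), ZNF575 by 1.08 (SE 0.19, adjusted p = 4.77e-06) and ZNF404 by 0.86 (SE 0.15, adjusted p = 4.76e-06).

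**Figure D4:**
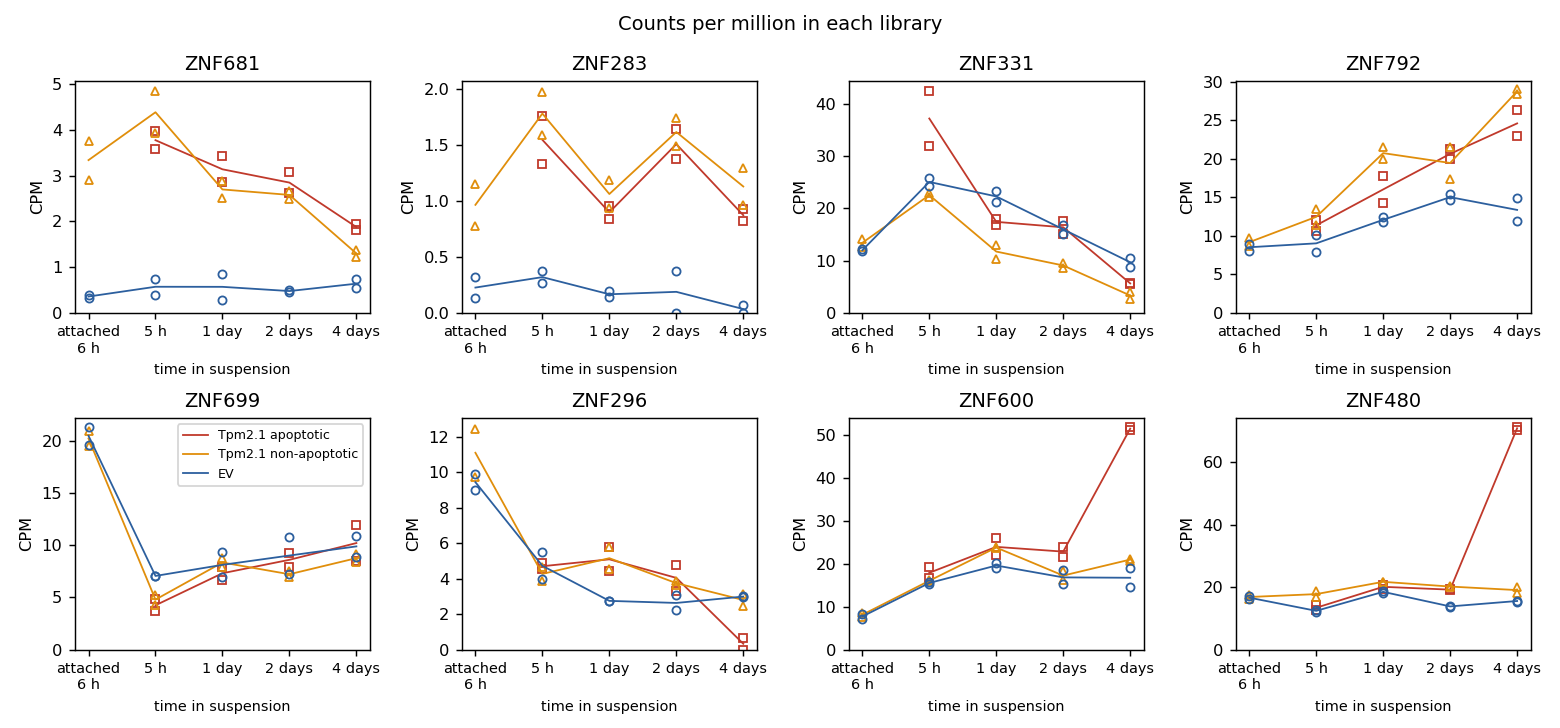
Level of 8 named genes in CPM, 1 point per library, with lines through group means and attached Tpm2.1 cells drawn with the non-apoptotic ones. ZNF681 and ZNF283 are higher in every Tpm2.1 group than in the EV group of the same condition, ZNF699 and ZNF296 are highest in attached cells, and ZNF480 and ZNF600 are highest in apoptotic 4 day cells (70.5 and 71.4 CPM and 51.9 and 51.3 CPM).

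The fractions of suspended Tpm2.1 cells differed little at the first 3 times. Apoptotic against non-apoptotic cells had 13 higher and 10 lower genes at 5 hours, while 9.66% and 11.8% of all genes tested passed. At 1 day 16 were higher and 12 lower (7.99% and 11.3% of all genes), and at 2 days 15 were higher and 1 lower (6.92% and 9.71%). At 4 days 137 of 212 were higher and 26 lower, while 35.3% of all genes were higher and 36.8% lower. The median was 0.76, and past 2-fold 70 genes were higher and 22 lower, against 14.9% and 26.7% of all genes. Of the 163 genes that passed at 4 days, 123 had passed at none of the earlier times. Averaged over the 4 times, 92 genes were higher and 24 lower, while 25.6% and 32.4% of all genes were. Without the 4 day libraries that average gave 32 higher and 19 lower, with a median of −0.01.

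The 4 day difference went with base composition. Of the 183 expressed members with under 50% G+C in the longest transcript, 134 were higher and 2 lower in apoptotic than in non-apoptotic 4 day cells, with a median of 0.84. Of the 29 with 50% or more, 3 were higher and 24 lower, with a median of −2.19. All genes split in the same way, with 5618 higher and 1069 lower of 9642 under 50% and 442 higher and 5255 lower of 7541 at 50% or more. Across the 212 genes Pearson's r between G+C content and log2 fold change was −0.81 at 4 days, and 0.22, −0.02 and −0.22 at 5 hours, 1 day and 2 days; genes are not independent replicates and share these 4 libraries. With a correction for G+C content the 4 day counts were 71 higher and 29 lower, with a median of 0.23, and those of the mean over times 47 and 24. The lower number of genes detected and the higher mitochondrial share of these libraries moved with the result as well, and the part of RNA quality in it was not tested. G+C content went with other comparisons too, less strongly. In non-apoptotic against attached Tpm2.1 cells r was −0.57, −0.36, −0.29 and −0.13 over the 4 times. In suspended against attached EV cells it was −0.34, −0.35, −0.21 and −0.14. Between non-apoptotic and suspended EV cells it was −0.31, −0.07, −0.15 and −0.10. The G+C correction was not run at the single times of those comparisons.

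**Figure D5:**
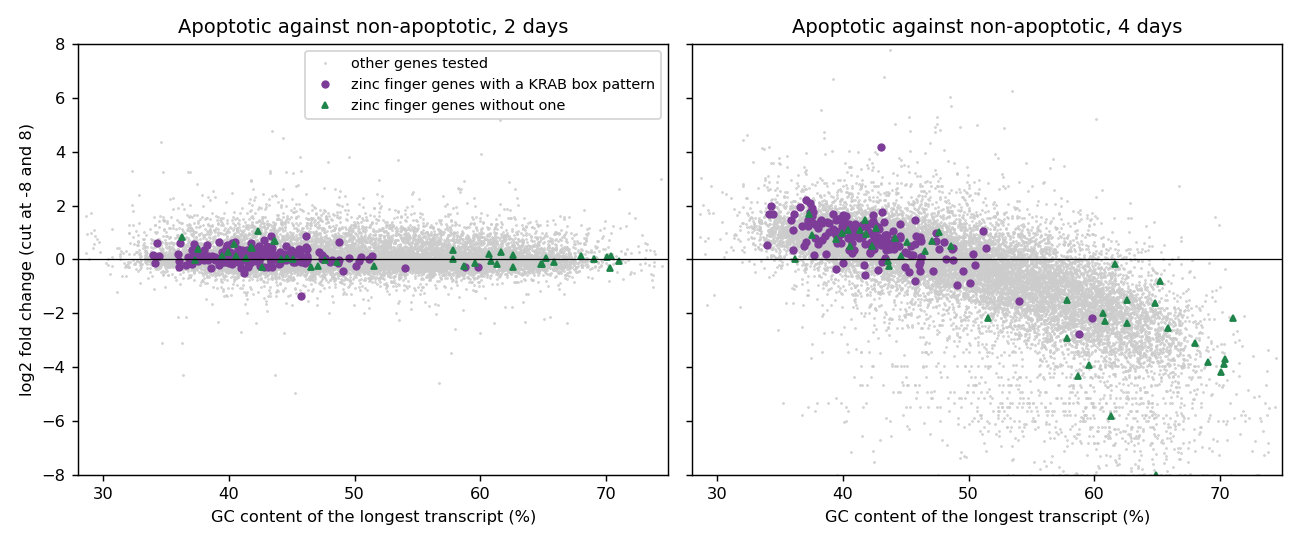
Log2 fold change of apoptotic against non-apoptotic cells (vertical) against the percent of G and C in the longest transcript (horizontal) at 2 days and at 4 days, with the 212 zinc finger genes over all genes tested and values past 8 drawn at 8. At 4 days the zinc finger genes at 50% G+C or more have a median of −2.19 and those under 50% one of 0.84 (r = −0.81), while at 2 days r is −0.22.

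KRAB genes, clusters and neighbours lined up along this split. At 4 days 123 of 170 genes with a KRAB stretch were higher and 6 lower in apoptotic than in non-apoptotic cells (median 0.84), against 14 higher and 20 lower of the 42 without (median −0.22). The other protein-coding genes of chromosome 19, which lie among them, had 29 higher and 615 lower of 747 (median −1.92). ZNF genes of other chromosomes had 124 higher and 61 lower of 228 (median 0.51). In the ZNF101 to ZNF254 cluster 21 of 27 genes were higher and none lower (median 1.46), in that from ZNF565 to ZNF573 22 of 23 and none (median 0.97), and in that from ZNF175 to ZNF331 33 of 35 and none (median 1.04). At an unadjusted p under 0.05 edgeR had 0, 0 and 1 lower genes in these clusters, and DESeq2 had 0 in each. For the ZNF101 to ZNF254 cluster the low values of the non-apoptotic cells weigh in. Most of its expressed genes were lower in non-apoptotic 4 day cells than in attached Tpm2.1 cells, as given above. The ZNF628 to ZNF835 cluster, with a median G+C content of 58.7%, had 2 higher and 9 lower of 12 (median −2.37). Among the 61 expressed members that overlap no other annotated gene, 35 were higher and 8 lower.

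Single genes show the size of the 4 day difference. ZNF480 had 70.5 and 71.4 CPM in apoptotic 4 day cells, against 19.9 and 18.2 CPM in non-apoptotic 4 day cells (1.90 ± 0.095, adjusted p = 2.43e-20). At 5 hours the apoptotic fraction had 12.6 and 14.2 CPM, against 18.8 and 16.7 CPM in the non-apoptotic one. With the correction for G+C content the 4 day value was 0.99. ZNF91, a KRAB protein with 31 fingers known to repress SVA retrotransposons, had 51.2 and 56.0 CPM in apoptotic 4 day cells, against 11.1 and 12.4 CPM in non-apoptotic ones (2.19 ± 0.13, adjusted p = 1.1e-17). With the G+C correction its value was 1.26. ZNF93, known to repress LINE retrotransposons, had 15.0 and 11.0 CPM in apoptotic 4 day cells, against 3.90 and 4.75 CPM in non-apoptotic ones (1.59 ± 0.19, adjusted p = 2.3e-09; 0.84 with the correction). Here the low value of the non-apoptotic cells weighs in, since attached Tpm2.1 cells had 11.6 and 13.6 CPM.

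ZNF274, a KRAB protein that binds the bodies of zinc finger genes and brings SETDB1 to them, was among the steadiest. It had 44.9 and 52.1 CPM in apoptotic 4 day cells, against 34.9 and 37.2 CPM in non-apoptotic ones (0.43 ± 0.083, adjusted p = 1.55e-05). In suspended against attached EV cells its log2 fold change was 0.06 ± 0.061 (adjusted p = 0.378), and in non-apoptotic against attached Tpm2.1 cells −0.03 (adjusted p = 0.691). ZNF146 had 175 and 171 CPM in apoptotic 4 day cells, against 78.8 and 84.6 CPM in non-apoptotic ones (1.09 ± 0.068, adjusted p = 2.46e-17). ZNF114 differed by 0.63 ± 0.10 (adjusted p = 9.29e-07) and ZNF317 by 0.22 ± 0.076 (adjusted p = 0.0101). With the G+C correction ZNF274 was at 0.85, ZNF146 at 0.41, ZNF114 at 0.60 and ZNF317 at 0.49, all past the threshold.

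Of the 26 genes that were lower in the apoptotic 4 day fraction, 20 had no KRAB stretch and 24 had 50% G+C or more. ZNF787 had 3.17 and 2.41 CPM in apoptotic 4 day cells, against 44.9 and 37.7 CPM in non-apoptotic ones (−3.89 ± 0.17, adjusted p = 7.06e-22), and 37.9 and 37.4 CPM in the apoptotic fraction at 2 days. With the G+C correction its value was −0.76 (adjusted p = 0.00206). ZNF358 had 3.26 and 0.185 CPM in apoptotic 4 day cells, against 25.0 and 24.3 CPM in non-apoptotic ones (−3.82 ± 0.27, adjusted p = 8.57e-16; −0.83 and adjusted p = 0.0313 with the correction). ZNF428 had 0 and 0.648 CPM in apoptotic 4 day cells, against 18.2 and 18.7 CPM in non-apoptotic ones (−5.82 ± 0.31, adjusted p = 2.55e-19; −3.85 with the correction). ZNF524 had no count in either apoptotic 4 day library, against 127 and 116 counts in non-apoptotic ones, and was at least 31.0-fold lower with a floor of 3 counts per library. At 2 days the apoptotic fraction still had 7.99 and 5.86 CPM of ZNF524. The G+C content of the longest transcript was 70.3% for ZNF787, 69.1% for ZNF358, 61.3% for ZNF428 and 64.9% for ZNF524.

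Averaged over the times, with the same sign at each, ZNF738, ZNF493, ZNF682 and ZNF814 were higher in the apoptotic fraction. ZNF738 had 11.5 and 10.4 CPM at 5 hours and 18.0 and 16.9 CPM at 4 days in apoptotic cells, against 7.92 and 6.48 CPM and 5.55 and 5.32 CPM in non-apoptotic cells (0.94 ± 0.097, adjusted p = 8.43e-11). ZNF493 had a median of 5.05 CPM in the 8 apoptotic libraries (4.36 to 9.81), against 3.24 CPM in the 8 non-apoptotic ones (1.99 to 3.78), so that the fractions did not overlap (0.91 ± 0.12, adjusted p = 3.16e-08). ZNF682 differed by 0.80 ± 0.13 (adjusted p = 9.48e-07) and ZNF814 by 0.79 ± 0.14 (adjusted p = 1.12e-05). ZNF154, whose promoter is often methylated in tumours, had the highest fold change (1.94 ± 0.42, adjusted p = 0.000139) at levels of 0.249 to 2.13 CPM in apoptotic and 0 to 0.345 CPM in non-apoptotic cells. With a negative fitted value at every time, the lower genes were ZNF416 (−0.57 ± 0.099, adjusted p = 5.75e-06), ZNF584 (−0.36 ± 0.051, adjusted p = 8.8e-08), ZNF526 (−0.43 ± 0.066, adjusted p = 4.86e-07) and ZNF473 (−0.16 ± 0.064, adjusted p = 0.0324). At 4 days the fractions of ZNF473 overlapped, with 12 and 15.7 CPM in apoptotic and 14.7 and 13.1 CPM in non-apoptotic cells. The call of ZNF526 was lost without 4 days and with the G+C correction, and that of ZNF473 under several alternatives.

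The change of the fraction difference at 4 days against the mean of the earlier times was tested directly. It was positive for 129 genes and negative for 31, while 33.2% and 36.4% of all genes passed, with a median of 0.73, against −0.05 over all genes. With the G+C correction the counts were 62 and 27 and the median 0.16. ZNF480 had 2.09 ± 0.11 (adjusted p = 1.99e-19), and 1.18 with that correction. ZNF253 had 2.14 ± 0.21 (adjusted p = 6.57e-12), with 16.9 and 19.1 CPM in apoptotic and 5.07 and 4.24 CPM in non-apoptotic 4 day cells. ZNF154 had 2.95 ± 1.1 (adjusted p = 0.0169), a call lost with the G+C correction and without the first non-apoptotic or the second apoptotic 4 day library. At the bottom were ZNF428 (−5.73 ± 0.33, adjusted p = 3.93e-18) and ZNF837 (−4.54 ± 0.72, adjusted p = 5.53e-07), the second with 3 and 0 counts in apoptotic 4 day cells, so that its fitted size depends on the prior count, and no longer called with the G+C correction (adjusted p = 0.241).

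Promoters were compared as sequence alone, since the files hold no measure of binding or methylation. RefSeq windows of 250 bases before to 50 after a start (GRCh38.p14) matched 217 members by symbol, 190 of them expressed. The core of the ETS factor motif, CCGGAAG, read on both strands, was present in 39.7% of 232 promoters of expressed members, against 16.1% of 15512 promoters of expressed protein-coding genes. TATAAA was present in 2.16%, against 6.41%. A match is a description of these letters and not a site. The median number of CpG pairs was 20 in expressed members and 25 in expressed protein-coding genes. At 4 days, of the 90 expressed members with the ETS core 63 were higher and 8 lower in apoptotic than in non-apoptotic cells, and of the 100 without it 60 were higher and 17 lower. In suspended against attached EV cells the counts were 48 and 13 with the core and 50 and 16 without. The promoters of ZNF91 (chr19:23395422-23395721, minus strand) and ZNF787 (chr19:56121246-56121545, minus strand) are printed 5′ to 3′ as the genes of opposite direction at 4 days, with the ETS core in capitals.
ZNF91: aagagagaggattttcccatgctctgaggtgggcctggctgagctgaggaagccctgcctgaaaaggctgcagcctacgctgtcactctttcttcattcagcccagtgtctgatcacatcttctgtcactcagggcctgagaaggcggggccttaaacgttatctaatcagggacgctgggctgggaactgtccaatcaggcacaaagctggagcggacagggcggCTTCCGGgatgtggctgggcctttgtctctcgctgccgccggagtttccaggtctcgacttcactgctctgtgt
ZNF787: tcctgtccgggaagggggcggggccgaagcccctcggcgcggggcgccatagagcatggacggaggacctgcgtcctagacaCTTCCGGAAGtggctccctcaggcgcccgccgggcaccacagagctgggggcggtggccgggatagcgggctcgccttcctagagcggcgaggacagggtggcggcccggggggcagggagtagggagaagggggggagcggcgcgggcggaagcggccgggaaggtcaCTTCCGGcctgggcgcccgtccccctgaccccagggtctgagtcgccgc
The ZNF91 window has 1 match and 11 CpG pairs at 57.3% G+C, and the ZNF787 window has 3 matches and 32 CpG pairs at 75%.

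The genes of the proteins that KRAB zinc fingers work with were followed as a fixed list of 33, of which 32 were tested. In attached Tpm2.1 against attached EV cells 8 were higher and 2 lower, with 10.4% and 10.1% of all genes tested so called. In suspended against attached EV cells 13 were higher and 13 lower (34.2% and 32.2% of all genes), and in non-apoptotic against attached Tpm2.1 cells 11 and 16 (30.8% and 30.6%). TRIM28, the corepressor itself, averaged 587, 417, 427 and 452 CPM over the 4 times in suspended EV cells, against 759 CPM in attached EV cells (−0.70 ± 0.041, adjusted p = 4.58e-18). In non-apoptotic Tpm2.1 cells it averaged 577, 542, 480 and 409 CPM, against 826 CPM in attached Tpm2.1 cells (−0.73 ± 0.040, adjusted p = 1.2e-18). SETDB1 moved the other way and by less, at 0.34 ± 0.086 in EV cells (adjusted p = 0.000656) and 0.26 ± 0.085 in Tpm2.1 cells (adjusted p = 0.00772). TRIM28 was thus lower in both lines, where most zinc finger genes called were higher. The listed genes as a whole went both ways, as counted above. Among those higher in both lines were CHD3 (0.83 in EV and 0.55 in Tpm2.1 cells), ATF7IP (0.67 and 0.29) and MPHOSPH8 (0.45 and 0.49). A relation of any listed gene to the zinc finger genes was not tested.

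UHRF1, which keeps DNA methylation through replication, fell by 1.08 in suspended EV cells (SE 0.039, adjusted p = 1.8e-24) and by 1.53 in non-apoptotic Tpm2.1 cells (SE 0.039, adjusted p = 3.64e-29). The histone methyltransferase SUV39H1 fell by 0.96 and 1.34 in those comparisons (SE 0.077 and 0.077, adjusted p = 7.35e-14 and 5.08e-18). In apoptotic against non-apoptotic 4 day cells 17 of the 32 genes were higher and 12 lower, with 35.3% and 36.8% of all genes so called, and with the G+C correction 18 were higher and 9 lower. TRIM28 averaged 68.9 CPM in apoptotic and 409 CPM in non-apoptotic 4 day cells (−2.57 ± 0.064, adjusted p = 1.29e-29), while ATRX, a chromatin remodeller, averaged 282 and 106 CPM (1.40 ± 0.068, adjusted p = 9.88e-21) and SETDB1 26.5 and 21.0 CPM (0.34 ± 0.12, adjusted p = 0.0103). With the G+C correction these values were −0.21 for TRIM28, 0.46 for ATRX and 0.69 for SETDB1, each past the threshold. The fewer genes detected and the mitochondrial share of 6.13% in the apoptotic 4 day libraries go with these values too, and their part was not tested.

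Across the 14 group means the genes whose levels followed the members' standardised mean most closely were EFCAB2 (Pearson's r = 0.947), BACE1-AS (0.940), AL353743.1 (0.935), PARP14 (0.932) and UBR2 (0.930). The members themselves had a median r of 0.67 with that mean, 129 had r over 0.5 and 22 under −0.5. Without the apoptotic 4 day group the first 5 had r between 0.864 and 0.895 and were no longer the closest, AC106869.1 (0.927) and TLR3 (0.908) being closer, and the members' median r was 0.52. The groups share lines and the 4 day fractions, so these values only describe the pattern.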

How the data were processed

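Polyadenylated RNA of 28 libraries in 14 groups was sequenced, and the authors deposited a table of counts and FPKM per gene. Per the submitters' processing notes the build was hg38 and DESeq2 was used; no source used here names the aligner, counter or strand setting. The deposited FPKM equal count over gene length and a scaled library total. Each deposited count entered edgeR 4.0.16 (R 4.3.3) as it stood, with TMM scaling, filterByExpr over the 14 groups, glmQLFit on all libraries and glmQLFTest, with Benjamini-Hochberg adjustment over 17191 genes at 0.05. Means over times weight times equally, and the SE is the absolute log2 fold change over the square root of F. With 2 libraries a group, p-values rest on a spread pooled over 14 residual degrees of freedom. CPM use TMM-scaled totals. Levels are compared between genes in FPKM alone.

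Tested on simulated data of the attached comparison, with 16214 genes run, the fit found 98% of 1.5-fold and 100% of 2-fold changes. Of its calls, 4.35% were false. The changed genes were drawn from those with higher counts, and every gene was given the same spread. Recovery among members with low counts or a larger spread was therefore not tested. Fingers and KRAB stretches were counted on coding sequences of GENCODE v29, and the wider KRAB pattern and the split at 50% G+C were set after values were seen. Named genes were the 6 highest in FPKM, and in each comparison the 5 highest and lowest (3 for differences) past the threshold with at least 1 CPM and, for means over times, the same sign at each time, plus ZNF91, ZNF93 and ZNF274. Members and lists were chosen with earlier results of these data known. Alternatives were DESeq2 1.42.0, its size factors, no filter, the libraries of a comparison alone, G+C correction, protein-coding genes alone, a replicate block and leaving out libraries or 4 days.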

Additional observations from a re-analysis of the deposited data

Results flagged for a closer look

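Several named genes had a response that differed between groups by a direct test of the difference (edgeR, adjusted p over all genes). Line and bead separation cannot be told apart in the first of these differences. The suspension response of non-apoptotic Tpm2.1 cells minus that of EV cells was −0.82 for ZNF493 (adjusted p = 0.0369), −1.45 for ZNF575 (0.00851), −0.45 for ZNF551 (0.0161) and −1.02 for ZNF331 (1.83e-06). It was 0.57 for ZNF473 (0.000613), 0.58 for ZNF792 (0.00407) and 0.57 for ZNF468 (0.000255).

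The difference of apoptotic and non-apoptotic cells changed between 4 days and the mean of the earlier times by 2.95 for ZNF154 (adjusted p = 0.0169), 0.99 for ZNF738 (0.000255), 1.43 for ZNF493 (3.81e-05), 0.87 for ZNF682 (0.0162), 2.14 for ZNF253 (6.57e-12) and 2.09 for ZNF480 (1.99e-19). It changed by −1.42 for ZNF526 (2.28e-09), −0.70 for ZNF584 (7.33e-06), −5.73 for ZNF428 (3.93e-18) and −4.54 for ZNF837 (5.53e-07). For ZNF524, with no count in the apoptotic 4 day libraries, the change was −4.92 or lower, a bound at the floor of 3 counts per library. The adjusted p of 4.03e-16 by edgeR belongs to the fitted change of −10.17 and not to this bound. Groups of 2 libraries are too small for a test of single outlying libraries.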

How the results depend on the processing

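Precision is limited by 2 libraries a group and by low counts of many genes. The higher and lower counts in attached cells (11 and 1) were 6 higher with DESeq2, 7 and 2 without the filter, 23 and 4 with the libraries of the comparison alone, 4 lower with G+C correction, 0 lower with protein-coding genes alone, 5 lower in a fit without the apoptotic 4 day libraries, and 7 and 4 with replicate block and G+C correction. With G+C correction, alone and with the block, higher genes numbered 47 and 47 for the fractions averaged over times, 71 and 71 at 4 days, and 62 and 60 for the change at 4 days. Without 4 days the fractions averaged over times gave 32 higher, and the line difference 14 positive. Without 4 days, values reversed for ZNF146 (−0.14), ZNF114 (−0.057), ZNF358 (0.036) and ZNF93 (−0.25) between fractions, ZNF114 between non-apoptotic and EV cells (0.0031), and ZNF93 between non-apoptotic and attached cells (0.040). The G+C correction moved the median of all genes in suspended EV cells to −0.04, against 0.06.

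Leaving out 1 library at a time gave 4 to 9 higher and 0 to 1 lower genes in attached cells, 86 to 110 and 25 to 33 in suspended EV cells, 75 to 99 and 32 to 38 in non-apoptotic against attached cells, 75 to 94 and 22 to 27 between fractions, 41 to 47 and 44 to 52 between non-apoptotic and EV cells, 5 to 10 and 16 to 27 for the line difference, 111 to 128 and 27 to 33 for the change at 4 days, and 122 to 133 and 25 to 31 at 4 days. Of 102 named results, 71 kept their call under every alternative run. The labels do not say whether same-numbered libraries of different groups were paired. The correlation of same-numbered deviations ran from −0.075 to 0.054 over 91 pairs. Low correlations cannot show that the libraries were unpaired, since a shared effect may be small beside the spread of low counts. The replicate block gave 11 and 1, 109 and 31, 100 and 35, 92 and 24, 45 and 50, 9 and 25, 127 and 31, and 137 and 26 in that order of comparisons.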
